A study of Mus musculus with 9 samples.

Results

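A total of 10 genes was read as a set that marks endothelium and its cell-to-cell junctions: Pecam1, Cdh5, Vwf, Eng, Esam, Emcn, Cldn5, Icam2, Egfl7 and Erg. They were taken as every probe set that the array's annotation pairs with exactly 1 gene, that gene being one of the 10. This gave 16 probe sets for 10 genes, out of 45037 probe sets and 18193 genes in all. The main probe set of a gene was the one with the highest mean over the 9 arrays.

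Endothelium is the single cell layer that lines the vessel wall and meets the blood. Its cells are held together by adherens junctions built on VE-cadherin and tight junctions built on claudins and immunoglobulin-type adhesion molecules, which together set the permeability of the wall and the passage of leukocytes. In the aorta these cells are a small part of a wall made mostly of smooth muscle and connective tissue, so their transcripts are read in whole tissue only against that background.

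The RNA came from the aorta of male mice labelled BMAL-/- (arrays F02, F03, F05 and F08) or BMAL+/+ (arrays F01, F04, F07, F09 and F10), with 1 Affymetrix mouse array per sample. BMAL1, the product of Arntl, is a transcription factor of the positive arm of the circadian clock. Both genotypes were partially backcrossed onto C57Bl/6J, which leaves an undefined share of another background in each animal. All mice had at least 2 weeks of 12 h light and 12 h dark, then at least 30 h of constant darkness, and were killed at ZT14, so a single time of day was sampled. Vessels were flushed with buffered saline and then water before the dissection. The labels call the tissue thoracic aorta, whereas the dissection protocol runs past the femoral branching. The loss of BMAL1 is in every cell of the animal, not in endothelium alone, and no age of the mice is stated in the labels.

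The clock genes Arntl, Nr1d2 and Npas2 were read as a check of the labels. Arntl was 5.87, 6.22, 2.77 and 6.05 on the log2 scale in BMAL-/- aortas F02, F03, F05 and F08, against 2.76, 6.67, 2.79, 2.82 and 2.74 in BMAL+/+ aortas F01, F04, F07, F09 and F10. Arntl thus read higher in 3 of the 4 arrays labelled BMAL-/-, and the place of its probe set relative to the deleted sequence was not known here, so its level alone does not check a label. Nr1d2, a clock gene that BMAL1 drives, was 5.08, 5.89, 11.21 and 5.48 in BMAL-/- aortas, against 11.69, 5.81, 11.27, 10.39 and 11.09 in BMAL+/+ aortas in the same order of arrays. Arrays F05 and F04 therefore stand with the other genotype in these genes, and Npas2 splits the arrays in the same way. In addition, the source name of array F01 says BMAL-/- while its title and strain say BMAL+/+. The differences of the members are given for all 9 arrays as labelled (4 BMAL-/-, 5 BMAL+/+) and for the 7 arrays without F04 and F05 (3 BMAL-/-, 4 BMAL+/+). BMAL-/- and BMAL+/+ name the labels throughout.

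All 10 main probe sets lay above the median level of the arrays, between percentiles 77.9 and 96.6 of mean level. That places every member above the floor of the values; since the brightest probe set was taken for each gene, it is a description of signal and not a test of which cells made the RNA. The second probe sets of Cdh5 (2.33 to 2.36) and Erg (2.25 to 2.33) stayed at the floor of the deposited values on all 9 arrays and carry no level. In RNA from whole aorta, fewer endothelial cells and less RNA per endothelial cell cannot be told apart. Genes of fat and striated muscle were bright in these samples too, with means of 14.92 for Fabp4 and 11.45 for Myh1 (log2). Endothelial RNA of the aortic lining therefore cannot be told from that of vessels in other tissue of the sample.

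No member passed limma's test at an adjusted p of 0.05 in either array set. The background share called among all probe sets was 0% with 9 arrays and 0.00888% with 7. At an unadjusted p under 0.05, 1 of 10 members was lower in BMAL-/- with 9 arrays (Pecam1), where 8.67% of all probe sets were past that threshold in either direction and 0.75% were lower. With 7 arrays 2 of 10 were lower (Pecam1 and Esam), against 23.7% of all probe sets in either direction and 3.7% lower. Among the 11181 genes at or above the median level, whose signal is more like that of the members, 2.33% and 14.7% were past it with 9 and 7 arrays, of which 1.16% and 6.65% were lower. The groups did not overlap for 0 of 10 members with 9 arrays (0.773% of all probe sets) and for 2 of 10 with 7, both lower (17.5% of all probe sets, and 0.259% and 5.06% of the brighter genes lower with 9 and 7 arrays). A one-way ANOVA of each probe set also gave 0 members at the adjusted p in both array sets, and 1 with 9 arrays and 2 with 7 at the unadjusted p. The median difference of the 10 main probe sets was -0.18 with 9 arrays and -0.22 with 7, beside 0.01 and 0.03 over those genes at or above the median level. Of the 10 members, 7 read lower and 3 higher with 9 arrays, and 6 lower and 4 higher with 7, while 47.5% and 45.8% of those genes read lower.

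**Figure D1:**
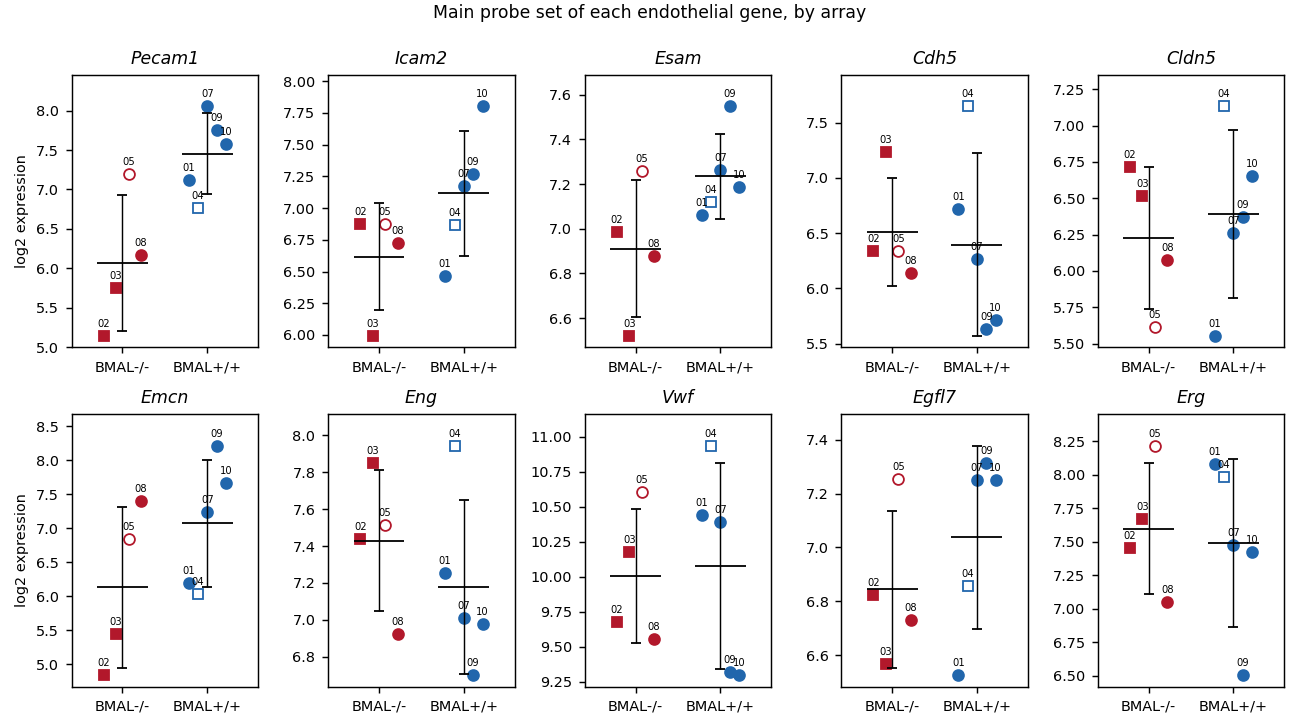
Log2 expression of the main probe set of each gene by array, with BMAL-/- arrays on the left and BMAL+/+ arrays on the right of each panel. Open symbols are F05 and F04, squares are the arrays F02, F03 and F04 with a strong 3′ to 5′ imbalance, bars are the mean ± SD of all arrays of the label, and the vertical axes differ and do not start at 0. The groups overlap in all 10 panels with every array counted.

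Pecam1 (CD31), an immunoglobulin-type adhesion molecule of endothelial contacts that platelets and leukocytes also carry, had the widest gap between the labels. It measured 5.14, 5.75, 7.19 and 6.17 in BMAL-/- aortas F02, F03, F05 and F08, against 7.12, 6.76, 8.06, 7.75 and 7.57 in BMAL+/+ aortas F01, F04, F07, F09 and F10. The 3 lowest arrays were F02, F03 and F08, all labelled BMAL-/-, and the 1 overlap between the labels came from F05, which lay above F01 and F04. The difference was -1.39 ± 0.42 (SE; 95% interval -2.34 to -0.43; adjusted p = 0.37) with 9 arrays. Without F04 and F05 it was -1.94 ± 0.31 (-2.68 to -1.19; adjusted p = 0.208), and the groups did not overlap. Under 21 alternatives to the 9-array fit it read between -1.94 and -0.83, the -1.94 being the fit without F04 and F05. Under 18 alternatives to the 7-array fit it read between -2.23 and -1.42, so that the sign never turned. These alternatives share most of their arrays and are not independent readings.

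Platelet markers were read because platelets carry Pecam1. Of 9 measured platelet and megakaryocyte genes, 4 (Gp9, Gp5, Gp6 and Treml1) were under 3.5 on every array, and 0 passed an unadjusted p of 0.05 in either array set. The summed level of the list was 8.40 to 9.13 (log2) in BMAL-/- aortas and 8.11 to 9.02 in BMAL+/+ aortas. Its brightest genes were Pf4, Ppbp and Itga2b, which differed by -0.089, 1.59 and -0.0016 with 7 arrays (adjusted p of 0.749, 0.286 and 0.991) and by -0.069, 0.87 and -0.0018 with 9. Of the 9 measured platelet genes, 7 read higher in BMAL-/- in both array sets. Most genes did so too: of all 18193, 12084 read higher with 9 arrays and 12389 with 7. The platelet list had a median difference of 0.022 with 9 arrays and 0.032 with 7, beside 0.030 and 0.043 over all genes. Gp9 and Gp5, with the smallest p of the list, were at the floor. The macrophage and leukocyte list, whose cells also carry Pecam1, summed to 10.80 to 12.24 in BMAL-/- aortas and 11.56 to 12.90 in BMAL+/+ aortas. With 7 arrays 5 of its 11 measured genes had an unadjusted p under 0.05, all lower in BMAL-/-, and with 9 arrays 0 did. C1qb, Csf1r and Mrc1, its brightest genes, differed by -0.84, -0.47 and -0.95 with 7 arrays and by -0.43, -0.29 and -0.57 with 9. Cd163 and C1qc, with its smallest p, differed by -1.42 and -2.58 with 7 arrays (adjusted p = 0.208 each) and by -0.77 and -1.63 with 9 (adjusted p of 0.379 and 0.37), and C1qc was at its lowest on F02, F03 and F04. Itgam and Cd3e of that list were under 3.5 on every array. The part of these cells in the Pecam1 difference was not tested.

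Esam and Icam2 are immunoglobulin-type adhesion molecules of the endothelial surface. Esam, at tight junctions, measured 6.99, 6.52, 7.26 and 6.88 in BMAL-/- aortas F02, F03, F05 and F08, against 7.06, 7.12, 7.26, 7.55 and 7.19 in BMAL+/+ aortas F01, F04, F07, F09 and F10. Its range was narrow, and the arrays F03, F08 and F02 were its 3 lowest. The difference was -0.33 ± 0.17 (SE; -0.72 to 0.07; adjusted p = 0.37) with 9 arrays and -0.47 ± 0.18 (-0.91 to -0.03; adjusted p = 0.208) with 7, where the groups did not overlap. Icam2, a ligand of leukocyte integrins that endothelium carries at rest, measured 6.87, 5.99, 6.87 and 6.73 in BMAL-/- aortas, against 6.47, 6.87, 7.17, 7.27 and 7.80 in BMAL+/+ aortas. The groups overlapped, with the lowest value on F03 and the next on F01. Its difference was -0.50 ± 0.29 (-1.16 to 0.16; adjusted p = 0.378) with 9 arrays and -0.65 (-1.50 to 0.21; adjusted p = 0.26) with 7.

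VE-cadherin (Cdh5) of the adherens junction and claudin-5 (Cldn5) of the tight junction overlapped widely between the labels. Cdh5 measured 6.34, 7.23, 6.34 and 6.14 in BMAL-/- aortas F02, F03, F05 and F08, against 6.72, 7.65, 6.27, 5.63 and 5.71 in BMAL+/+ aortas F01, F04, F07, F09 and F10. The highest and the lowest value both came from BMAL+/+ arrays. The difference was 0.11 ± 0.43 (-0.86 to 1.09; adjusted p = 0.888) with 9 arrays and 0.49 (-0.40 to 1.37; adjusted p = 0.386) with 7. Cldn5 measured 6.71, 6.51, 5.61 and 6.07 in BMAL-/- aortas, against 5.55, 7.13, 6.26, 6.37 and 6.65 in BMAL+/+ aortas. Its difference was -0.17 (-0.93 to 0.60; adjusted p = 0.786) with 9 arrays and 0.22 (-0.48 to 0.93; adjusted p = 0.615) with 7, so that its sign turned when F04 and F05 were left out. Both intervals hold changes of either direction.

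Endomucin (Emcn), a sialomucin of the endothelial surface, varied most of all members, over 3.38 on the log2 scale. It measured 4.84, 5.45, 6.84 and 7.40 in BMAL-/- aortas F02, F03, F05 and F08, against 6.20, 6.04, 7.24, 8.22 and 7.66 in BMAL+/+ aortas F01, F04, F07, F09 and F10. The arrays F02, F03 and F04 were the 3 lowest, whatever their label. The summed levels of the adipocyte, smooth muscle and fibroblast lists were lowest on these arrays too. The part of those tissues in the Emcn values was not tested. The difference of Emcn was -0.94 ± 0.64 (-2.39 to 0.51; adjusted p = 0.417) with 9 arrays and -1.44 ± 0.71 (-3.13 to 0.26; adjusted p = 0.228) with 7.

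Endoglin (Eng) is a co-receptor for ligands of the TGF-beta and BMP family, which signals with the receptor Acvrl1. Its 2 probe sets had almost the same mean level, 7.29 and 7.22, and ran in opposite directions. The main one measured 7.44, 7.85, 7.51 and 6.92 in BMAL-/- aortas F02, F03, F05 and F08, against 7.25, 7.94, 7.01, 6.70 and 6.98 in BMAL+/+ aortas F01, F04, F07, F09 and F10. The other measured 5.97, 6.80, 7.42 and 7.21 in BMAL-/- aortas, against 7.17, 7.09, 7.56, 7.99 and 7.81 in BMAL+/+ aortas. F02, F03 and F04 were the 3 lowest arrays of the second probe set, whereas F04 and F03 were the 2 highest of the main one. The difference was 0.25 (-0.37 to 0.88; adjusted p = 0.602) for the main probe set and -0.67 ± 0.32 (adjusted p = 0.37) for the other with 9 arrays. With 7 arrays these were 0.42 (-0.18 to 1.02; adjusted p = 0.287) and -0.97 ± 0.34 (adjusted p = 0.208). No direction can therefore be given for Eng. The rule that takes the brighter probe set rested here on a margin of 0.06.

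Vwf and Egfl7 are secreted by endothelium. Vwf, the clotting glycoprotein stored in Weibel-Palade bodies, measured 9.68, 10.18, 10.60 and 9.56 in BMAL-/- aortas F02, F03, F05 and F08, against 10.44, 10.94, 10.39, 9.32 and 9.30 in BMAL+/+ aortas F01, F04, F07, F09 and F10. The BMAL-/- values all lay inside the BMAL+/+ range, and the difference was -0.07 (-0.96 to 0.82; adjusted p = 0.924) with 9 arrays and -0.06 (-0.94 to 0.82; adjusted p = 0.925) with 7. Egfl7, a protein laid down in the matrix around growing vessels, measured 6.82, 6.57, 7.25 and 6.73 in BMAL-/- aortas, against 6.53, 6.86, 7.25, 7.31 and 7.25 in BMAL+/+ aortas. Its difference was -0.19 (-0.67 to 0.29; adjusted p = 0.601) with 9 arrays and -0.38 (-0.92 to 0.16; adjusted p = 0.288) with 7. Its other 3 probe sets read -0.36, -0.20 and -0.26 with 9 arrays and -0.42, -0.25 and -0.35 with 7, so all 4 read lower in BMAL-/- and none passed.

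Erg, a transcription factor of the ETS family that keeps endothelial genes active, measured 7.45, 7.67, 8.22 and 7.05 in BMAL-/- aortas F02, F03, F05 and F08, against 8.08, 7.99, 7.47, 6.50 and 7.42 in BMAL+/+ aortas F01, F04, F07, F09 and F10. The highest array was F05 and the lowest F09. The difference was 0.11 (-0.70 to 0.91; adjusted p = 0.874) with 9 arrays and 0.02 (-0.87 to 0.91; adjusted p = 0.971) with 7.

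ETS factors bind a GGAA core, and BMAL1 with its partner binds the E-box CACGTG, so the start regions of the members were searched for both, on both strands. RefSeq (GRCm38.p6) start regions from 250 bases before to 50 after the start were at hand for 5 of 10 members (Egfl7, Eng, Emcn, Cldn5 and Erg), in 9 windows. CACGTG stood in 0 of the 9 and in 7.15% of all 32851 windows. Of 3 longer ETS words, ACCGGAAG stood in 0 of 9 (2.3% of all), CCGGAAGT in 0 of 9 (3.89%) and ACAGGAAG in 3 of 9 (3.58%). The words ACCGGAAG and CCGGAAGT can overlap. The 3 windows with a match are printed below. A link between a match and a gene's values on the arrays was not tested. Capitals mark the match, which begins at -91 and -82 from the start in the first and second Egfl7 windows and at -174, on the reverse strand, in Emcn.
Egfl7, chr2:26580833-26581132, plus strand: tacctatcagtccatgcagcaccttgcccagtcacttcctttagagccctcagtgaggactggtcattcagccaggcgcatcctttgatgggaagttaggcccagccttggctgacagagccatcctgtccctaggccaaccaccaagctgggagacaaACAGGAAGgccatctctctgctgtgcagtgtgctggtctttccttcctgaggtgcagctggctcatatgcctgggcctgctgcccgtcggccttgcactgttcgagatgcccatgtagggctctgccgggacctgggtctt
Egfl7, chr2:26583615-26583914, plus strand: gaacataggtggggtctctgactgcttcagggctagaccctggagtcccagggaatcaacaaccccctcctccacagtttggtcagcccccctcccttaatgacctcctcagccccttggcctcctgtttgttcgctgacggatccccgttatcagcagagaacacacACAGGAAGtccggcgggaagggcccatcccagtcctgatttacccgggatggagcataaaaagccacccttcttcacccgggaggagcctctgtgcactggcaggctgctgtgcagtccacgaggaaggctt
Emcn, chr3:137340828-137341127, plus strand: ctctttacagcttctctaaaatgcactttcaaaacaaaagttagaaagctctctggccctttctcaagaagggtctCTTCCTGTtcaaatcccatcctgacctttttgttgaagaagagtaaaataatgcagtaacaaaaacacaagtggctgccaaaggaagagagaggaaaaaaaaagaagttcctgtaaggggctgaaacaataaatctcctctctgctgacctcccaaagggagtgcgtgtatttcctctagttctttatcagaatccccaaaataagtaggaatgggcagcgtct
A match is a run of letters, not a binding site, and neither binding nor start-site use was measured here. Egfl7 also hosts miR-126a, a microRNA known from endothelium, whose mature 3p strand is shown with its seed in capitals; the array values do not measure it.
mmu-miR-126a-3p, chr2:26591402-26591423, plus strand: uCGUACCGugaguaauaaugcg

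The arrays differed in the 3′ to 5′ balance of their control probe sets, a usual gauge of RNA degradation and labelling. The 3′ minus 5′ difference of the Gapdh control, which grows when transcripts are read mainly near their 3′ end, was 3.31, 2.88, 0.70 and 0.05 (log2) in BMAL-/- aortas F02, F03, F05 and F08, against 1.26, 3.01, 0.12, -0.05 and -0.13 in BMAL+/+ aortas F01, F04, F07, F09 and F10. The beta-actin control gave 4.24, 4.20, 2.30 and 1.80 in BMAL-/- aortas, against 2.72, 3.91, 1.58, 1.56 and 1.38 in BMAL+/+ aortas. F02, F03 and F04 thus stood apart from the other 6 arrays in both controls, and were also the 3 highest in the Pcx control (6.05, 5.93 and 6.07, against 3.16 to 5.02 on the other 6), and with 7 arrays both arrays of this kind were BMAL-/-. The Tfrc control did not set them apart, at 0.56, 0.99 and 0.47 against 0.48 to 1.76 on the other 6, with its 5′ probe set near the floor. Many genes ran with the imbalance: of the 11181 brighter genes, 28% correlated with the Gapdh difference beyond 0.7 in size over the 9 arrays, as did 4 of 10 members. Emcn spanned 4.84 to 6.04 on these 3 arrays and 6.20 to 8.22 on the other 6, with no overlap. The second Eng probe set spanned 5.97 to 7.09 on the 3 arrays and 7.17 to 7.99 on the other 6, also with no overlap. Pecam1 had a median of 5.75 on the 3 arrays and 7.38 on the other 6, with overlap. In the other direction, Cdh5 had medians of 7.23 and 6.20, and the main Eng probe set 7.85 and 6.99, on the 3 and the other 6 arrays.

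**Figure D2:**
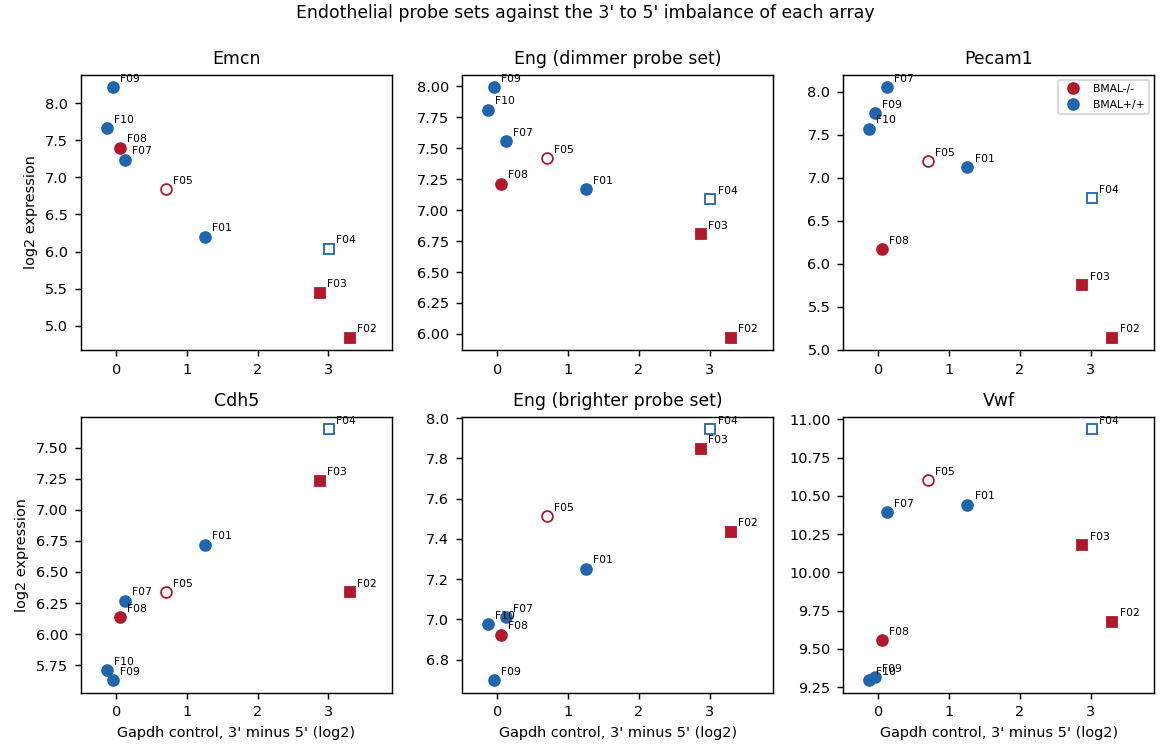
Log2 expression of endothelial probe sets (vertical axes) against the 3′ minus 5′ difference of the Gapdh control on the same array (horizontal axis, log2), with 1 point per array coloured by label. The arrays F02, F03 and F04 lie at 2.88 to 3.31 and the other 6 at -0.13 to 1.26. The dimmer Eng probe set is the second one and the brighter the main one. Emcn lies lower and Cdh5 higher toward the right.

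The genotype difference was therefore also read with the Gapdh imbalance as a covariate and without the arrays concerned, alternatives chosen after these values were seen. Pecam1 was -1.05 (adjusted p = 0.538) with the covariate and 9 arrays, and -1.42 (-2.14 to -0.71; adjusted p = 0.266) with 7. Without F02, F03 and F04 it was -0.95 (adjusted p = 0.697), on F05 and F08 against 4 BMAL+/+ arrays. Without F02, F03, F04 and F05 it was -1.46 (adjusted p = 0.665), on F08 alone against 4, the lone array being assumed to vary like the others. Emcn, by contrast, moved from a difference of -1.44 with 7 arrays to 0.038 with the covariate and to 0.068 without F02 and F03. Cdh5 moved from 0.49 to 0.0076 and 0.053, and the main Eng probe set from 0.42 to 0.0098 and -0.061. Esam moved from -0.47 to -0.37 and -0.39, and Icam2 from -0.65 to -0.32 and -0.45. With 7 arrays only BMAL-/- arrays had the strong imbalance, so label and imbalance are largely confounded there. Without F02 and F03 the BMAL-/- side rests on F08 alone. A small value in these fits does not show that a difference is absent. With 9 arrays and the covariate the differences were -0.34 for Emcn, -0.23 for Cdh5, 0.031 for the main Eng probe set, -0.25 for Esam and -0.35 for Icam2. Emcn kept its sign in 21 of 21 alternatives to the 9-array fit, from -1.44 to -0.21, the -1.44 being the fit without F04 and F05. It did so in 16 of 18 alternatives to the 7-array fit. The part of RNA quality in these differences was not tested beyond these values.

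**Figure D3:**
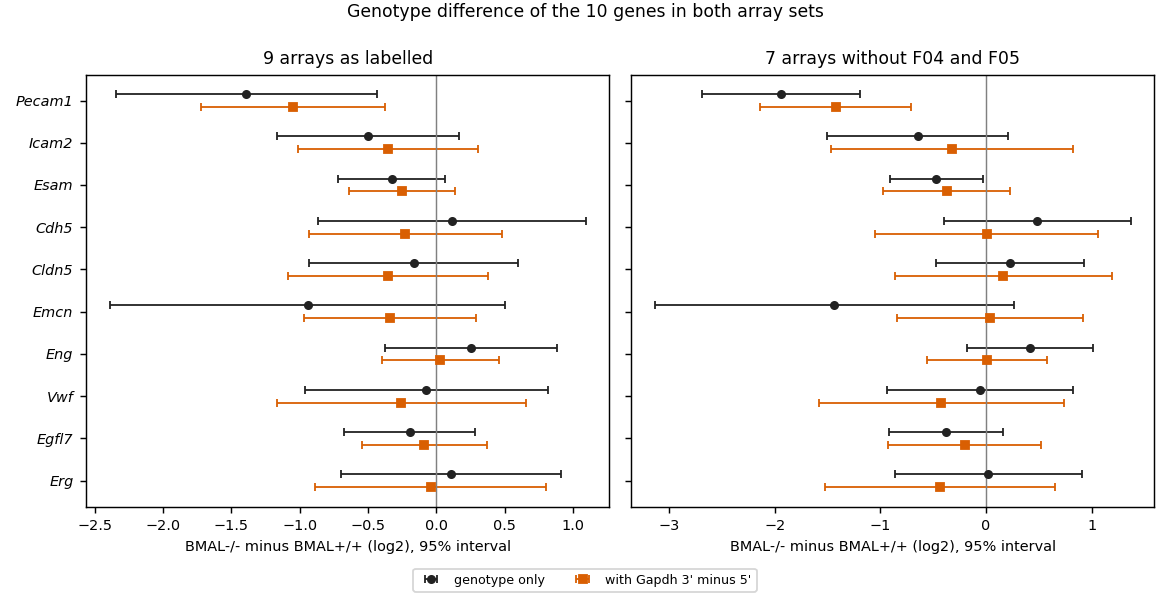
Difference of each main probe set, BMAL-/- minus BMAL+/+ (log2, horizontal axis), with its 95% interval, for 9 arrays (left) and for 7 arrays without F04 and F05 (right). The legend separates the fit with genotype only from the fit with the Gapdh 3′ minus 5′ difference added. With 7 arrays Pecam1 keeps an interval below 0 in both fits, while the Emcn estimate goes to 0.038 when the covariate is added.

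Across the arrays the members did not move as a block. Among the 45 pairs of main probe sets, 21 had a positive and 24 a negative Pearson correlation over the 9 arrays, with a median of -0.11. Sorted after the values were seen, Pecam1, Emcn, Esam, Icam2, Egfl7 and the second Eng probe set correlated with one another at 0.55 to 0.93 in 15 pairs. Cdh5, Vwf, Erg and the main Eng probe set did so at 0.64 to 0.90 in 6 pairs. Between these, 23 of 24 pairs were negative, from -0.78 to 0.05. The highest correlation of Cldn5 with another main probe set was 0.31 (Eng). Since F02, F03 and F04 stand apart, the same pairs were read over the other 6 arrays. There the first 15 pairs ran from 0.27 to 0.84, the next 6 from 0.72 to 0.96, and 23 of the 24 pairs between them were negative. The sorting had used these 6 arrays too, so this is not a separate reading. Within those 6 arrays the Gapdh imbalance still varied. Its correlation was -0.92 with Emcn, -0.76 with Icam2, -0.67 with the second Eng probe set, -0.61 with Egfl7, -0.26 with Esam and -0.19 with Pecam1. It was 0.88 with Cdh5, 0.78 with Erg, 0.76 with Vwf, 0.74 with the main Eng probe set and -0.91 with Cldn5. All these points share their array, its RNA and its normalization, and the correlations are descriptions of few arrays.

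The 2 Eng probe sets correlated at -0.58 over the 9 arrays and also at -0.58 over the 6. Of 4788 genes with 2 probe sets at or above the median level, 26.4% had a negative correlation between them and 5.85% one as low as that of Eng, with a median of 0.44. The 4 Egfl7 probe sets, by contrast, correlated with one another at 0.47 to 0.86.

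**Figure D4:**
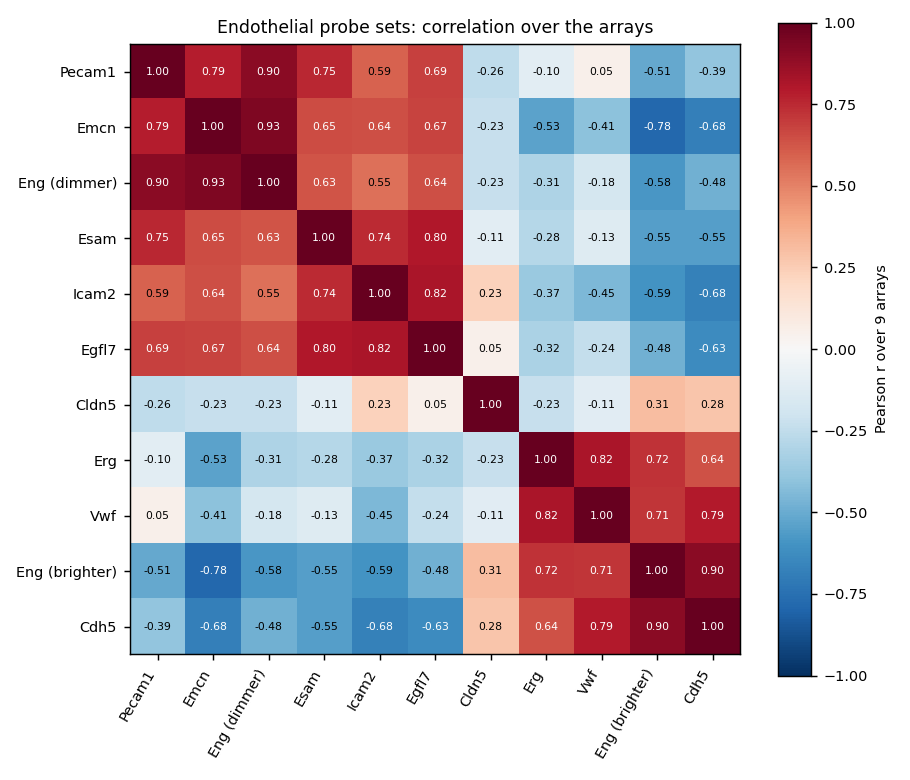
Pearson correlation over the 9 arrays between endothelial probe sets, in colour from -1 to 1. Pecam1, Emcn, Esam, Icam2, Egfl7 and the second (dimmer) Eng probe set form a positive corner (0.55 to 0.93), as do Cdh5, Vwf, Erg and the main (brighter) Eng probe set (0.64 to 0.90), and 23 of the 24 pairs between them are negative.

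The genes closest to each member were sought among 11171 others at or above the median level, by correlation over the 9 arrays. The mean of the 10 members was most like Sox18 (0.92), a transcription factor of endothelium, then Cpa3 (0.88), a mast cell protease, followed by Sft2d3 (0.87), Nucb1 (0.87), Retnla (0.86), Pelo (0.85), Pias3 (0.85) and Fbln2 (0.85). Pecam1 was closest to Stab1 (0.98), a scavenger receptor of endothelium and macrophages, and Emcn to Sod3 (0.997), the extracellular superoxide dismutase. Egfl7 was closest to Cma1 (0.91), a mast cell chymase. Cdh5 was closest to Cbfa2t2 (0.98), the main Eng probe set to Zfp574 (0.98), Vwf to Slc36a4 (0.96), Erg to Cggbp1 (0.97), Icam2 to Man2b1 (0.96), Esam to Golgb1 (0.96) and Cldn5 to Atg101 (0.90). With this many genes and 9 arrays, high correlations are found for any pattern, and these are descriptions only.

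Of 30 other endothelial identity genes, all measured, 3 had an unadjusted p under 0.05 with 9 arrays, all lower in BMAL-/-, and 0 passed the adjusted p. With 7 arrays 7 were lower and 1 higher at that p, and 0 passed the adjusted p; the list's median was -0.23, beside 0.03 over all genes at or above the median level. Stab1 measured 5.99, 6.03, 7.06 and 6.51 in BMAL-/- aortas F02, F03, F05 and F08, against 6.99, 6.76, 7.69, 7.56 and 7.46 in BMAL+/+ aortas F01, F04, F07, F09 and F10. It followed the order of Pecam1, with F02, F03 and F08 lowest, and its difference was -1.25 ± 0.23 with 7 arrays (adjusted p = 0.208) and -0.90 with 9 (adjusted p = 0.37). With the covariate it was -0.88 with 7 arrays and -0.66 with 9. Ramp2, the partner of the adrenomedullin receptor, differed by -1.99 ± 0.40 with 7 arrays (adjusted p = 0.208) and by -1.14 with 9 (adjusted p = 0.37). It was 5.58, 5.38 and 6.03 on F02, F03 and F04, its 3 lowest arrays, and with the covariate its difference was -1.21 with 7 arrays and -0.57 with 9. Kdr, the main receptor of VEGF-A, read the other way, at 0.98 with 7 arrays (adjusted p = 0.208) and 0.54 with 9 (adjusted p = 0.418). Its 3 highest arrays were F03, F04 and F02, at 6.08, 5.49 and 5.16, and with the covariate its difference was 0.64 with 7 arrays and 0.26 with 9.

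Junction molecules work with scaffolds, catenins and connexins. Of 26 junction partner genes, 25 were measured and 0 had an unadjusted p under 0.05 with 9 arrays, while with 7 arrays 2 were higher and 1 lower, at a median of -0.05. Gja1, a connexin of gap junctions also made by smooth muscle, measured 12.54, 13.08, 12.06 and 12.27 in BMAL-/- aortas F02, F03, F05 and F08, against 11.89, 12.99, 11.52, 11.60 and 11.58 in BMAL+/+ aortas F01, F04, F07, F09 and F10. Its 3 highest arrays were F03, F04 and F02, those with the strong imbalance. The difference was 0.57 (adjusted p = 0.379) with 9 arrays and 0.98 ± 0.21 (adjusted p = 0.208) with 7, and with the covariate 0.28 and 0.68. Nectin2, an adhesion molecule of adherens junctions, differed by 1.22 with 7 arrays (adjusted p = 0.208) and 0.60 with 9 (adjusted p = 0.489), and by 0.61 with 7 and the covariate.

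In the pathway of endoglin, 0 of 15 genes had an unadjusted p under 0.05 with 9 arrays, and 4 were lower with 7, at a median of -0.24. Acvrl1, the receptor that endoglin serves, measured 4.76, 4.87, 6.05 and 5.69 in BMAL-/- aortas F02, F03, F05 and F08, against 5.88, 4.80, 5.98, 5.92 and 6.18 in BMAL+/+ aortas F01, F04, F07, F09 and F10. Its 3 lowest arrays were those with the strong imbalance, and the difference was -0.88 (adjusted p = 0.208) with 7 arrays, -0.42 with the covariate and -0.41 (adjusted p = 0.514) with 9. Tgfbr1, a receptor of TGF-beta, differed by -0.51 with 7 arrays (adjusted p = 0.208) and by -0.35 with 9 (adjusted p = 0.37). Id1, a target of Acvrl1 signalling, differed by -2.38 with 7 arrays (adjusted p = 0.208), by -0.87 with the covariate and by -1.06 with 9 arrays (adjusted p = 0.571).

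Of 15 arterial genes, 0 had an unadjusted p under 0.05 with 9 arrays and 3 were lower with 7 (median -0.07). Gja4, a connexin of arterial endothelium, differed by -0.35 with 7 arrays (adjusted p = 0.208) and by -0.068 with 9 (adjusted p = 0.864). Of 16 genes of veins, capillaries and lymphatics, 15 were measured. With 9 arrays 1 was lower at that p, and with 7 arrays 2 were higher and 2 lower (median 0.02). Esm1, a proteoglycan of growing vessels, measured 7.47, 5.15, 5.11 and 7.26 in BMAL-/- aortas F02, F03, F05 and F08, against 4.67, 7.04, 4.61, 4.37 and 4.11 in BMAL+/+ aortas F01, F04, F07, F09 and F10. F02, F08 and F04 were high and the other 6 low, and the difference was 1.29 (adjusted p = 0.375) with 9 arrays and 2.19 (adjusted p = 0.208) with 7. Reln, known from lymphatic endothelium, averaged 5.69 ± 0.42 in BMAL-/- and 6.70 ± 0.13 in BMAL+/+ aortas with 7 arrays (mean ± SD; adjusted p = 0.208), and differed by -0.68 with 9 (adjusted p = 0.37). Of the 7 inducible adhesion genes, 0 had an unadjusted p under 0.05 with 9 arrays and 1 with 7, Sele, at 2.52 in BMAL-/- and 2.46 in BMAL+/+ aortas, at the floor of the values, and Madcam1 also stayed at the floor.

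Markers of other cells of the wall, and of fat, striated muscle, mesothelium, red cells and nerve, were read beside the endothelial genes. None passed the adjusted p in either array set. Of 11 smooth muscle genes, 0 had an unadjusted p under 0.05 with 9 arrays and 4 were lower with 7, with medians of -0.49 and -0.80. Their summed level was 14.79 to 15.80 (log2) in BMAL-/- aortas and 15.21 to 15.98 in BMAL+/+ aortas. The 3 lowest sums were 14.95, 14.79 and 15.21 on F02, F03 and F04, the arrays with the strong imbalance. Acta2, Tagln and Myh11, the brightest genes of that list, differed by -0.14, -1.26 and -1.13 with 7 arrays, by -0.086, -0.65 and -0.66 with 9, and by -0.042, -0.37 and -0.59 with 7 arrays and the covariate. Smtn, which with Myh11 had the smallest p, differed by -1.23 with 7 arrays (adjusted p = 0.208) and -0.77 with 9 (adjusted p = 0.37). Of 9 fibroblast genes, 1 was lower with 9 arrays and 5 with 7, with medians of -0.73 and -1.17, and their sums were also lowest on F02, F03 and F04 (14.50, 14.29 and 14.85). Dcn and Dpt, with the smallest p, differed by -1.17 (adjusted p = 0.121) and -1.89 (adjusted p = 0.208) with 7 arrays, by -0.73 and -1.09 with 9 (adjusted p = 0.37 each), and by -0.99 and -1.13 with 7 arrays and the covariate. Gsn and Col1a2, which with Dcn were brightest, differed by -0.41 and -0.14 with 7 arrays and by -0.19 and -0.079 with 9. With 7 arrays 1 of 6 adipocyte genes and 1 of 8 striated muscle genes were lower at an unadjusted p under 0.05, 1 of 5 mesothelial genes was higher, and 0 of 4 red cell and 0 of 4 nerve genes passed it; with 9 arrays 0 of each list did. The striated muscle list had a median difference of 1.20 with 7 arrays and summed to 12.69 to 14.98 in BMAL-/- aortas and 11.04 to 14.88 in BMAL+/+ aortas. The summed level of the 10 endothelial members was 10.75 to 11.48 in BMAL-/- aortas and 10.95 to 11.71 in BMAL+/+ aortas. The parts of the makeup of the wall, of fat and striated muscle in the samples and of RNA quality in the differences above were not tested beyond these values.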

How the data were processed

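Total RNA of the aorta of 9 male mice was hybridised to Affymetrix mouse arrays, 1 array per animal sample, which the series' design text calls biological replicates. The deposited table holds log2 expression values of 45101 probe sets, and per the submitters' processing notes GCRMA and MAS5 were used, with no role or version given. No filter or further normalization was applied to them. Many probe sets crowd at a floor near the array medians of 3.13 to 3.24 and below, with no detection calls, and a probe set at the floor has no level. Precision is limited by how few arrays there are.

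After the 64 control probe sets were left out, 45037 remained. Exactly 1 gene is annotated for 34945, several for 932, and 9160 are unlisted. Symbols were updated to RefSeq names (GRCm38.p6). No build of the array is given in the sources used here, so only the RefSeq sequence windows carry coordinates. Each gene was represented by its brightest probe set.

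Genotype was the only term of a linear model fitted to every probe set (limma 3.58.1, R 4.3.3, lmFit and eBayes with a variance trend), with two-sided p-values adjusted by Benjamini-Hochberg over all 45037 and called at 0.05. Each difference is the BMAL-/- mean less the BMAL+/+ mean. The members, the gene lists and the 7-array set were chosen with earlier results of these data known. Named were all members, the clock check, and from each other list the genes that passed or else the 2 with the smallest p, with the brightest of other cell types, and the genes most like each member. The lists of mesothelium, red cells and nerve are given by counts alone. Striated muscle is given by counts, median, summed level and the mean of Myh1. Fat is given by counts, the mean of Fabp4 and the arrays on which its summed level was lowest. Kdr and Id1 lie outside that rule and were chosen after their values were seen. The alternatives were other normalizations, variance settings, filters, array weights, probe set choices, F01 in BMAL-/-, a one-way ANOVA and each array left out. The code of the fit was checked on simulated data, with planted differences larger than those of the members and noise independent between probe sets. That check does not cover smaller differences or the imbalance that these arrays share. Plots were drawn with matplotlib 3.10.9.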

Additional observations from a re-analysis of the deposited data

Results flagged for a closer look

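A sample was looked at again when its gap to the nearest of its group took up most of the group's range. Of 38 groups of values tested, 9 met this. Chance alone gives about 1 in 20, but the total cannot be set against that share. Every clock gene group tested met the rule, and the split of those genes was known beforehand. For the endothelial genes, Icam2 on F03 was 5.99, where the rest of the BMAL-/- arrays spanned 6.73 to 6.87. Of the Egfl7 probe sets other than the main one, 1 read 6.15 on F02 beside 7.01 to 7.02 on the remaining BMAL-/- arrays, and another 5.42 on F03 beside 5.68 to 5.72. F02 and F03 are both arrays with a strong 3′ to 5′ imbalance of the control probe sets.

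The other 6 were clock genes of F05 and F04. On F05, labelled BMAL-/-, Arntl was 2.77 against 5.87 to 6.22 on the other arrays of that label, Npas2 was 3.40 against 7.90 to 8.52, and Nr1d2 was 11.21 against 5.08 to 5.89. On F04, labelled BMAL+/+, Arntl was 6.67 against 2.74 to 2.82, Npas2 was 8.36 against 3.37 to 3.40, and Nr1d2 was 5.81 against 10.39 to 11.69. How these arrays came to stand with the other genotype was not tested.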

How the results depend on the processing

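No paired analysis was possible because the groups share no replicate numbers. With 9 arrays, 0 members passed the adjusted p under any alternative. The count at an unadjusted p under 0.05, 1 as reported, was 3 with array weights and 2 with F01 in BMAL-/- or without F04 and F05. It was 0 without probe sets whose names end in _x_at, _s_at or _a_at, and 0 without F02, F03 and F04. That suffix filter leaves no value for Pecam1, Eng, Emcn and Egfl7. The count ran from 1 to 2 with each array left out. The median difference, -0.18, was -0.36 with F01 in BMAL-/- and -0.033 with array weights, and ran from -0.35 (without F01) to -0.11 with each array left out. With 7 arrays, 3 members passed with array weights (Pecam1, Eng and Emcn, adjusted p of 0.0208, 0.0498 and 0.0347) and from 0 to 2 with each array left out, the 2 being Pecam1 and Emcn without F08. In those 2 settings 15448 and 16445 of all probe sets were called, against 4, and 296 were called without F02 and F03. The count at an unadjusted p, 2, was 1 with quantile normalization, with the suffix filter and with the Gapdh covariate. It was 4 with array weights, 6 with F01 in BMAL-/-, and 1 to 5 with each array left out. Of all probe sets, 4.69% were past the unadjusted p with 7 arrays and the covariate. That share was 3.45% without F02, F03 and F04 and 23.7% without F04 and F05. For array weights, F01 in BMAL-/-, quantile normalization, the suffix filter and single arrays left out, no such share is at hand. Those counts therefore have no background beside them. The median, -0.22, was -0.13 with quantile normalization, -0.017 with the suffix filter and -0.34 with F01 in BMAL-/-. It was -0.31 without F02 and F03 and -0.31 when the probe sets of a gene were averaged. The covariate and the removal of F02, F03 and F04 were chosen after the data were seen.

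Single genes turned sign under some alternatives. With 9 arrays Vwf turned with array weights (0.33), F01 in BMAL-/- (0.11), without F02, F03 and F04 (0.22) and over single arrays (-0.27 to 0.14), Cldn5 without F04 and F05 (0.22) and over single arrays (-0.38 to 0.040), Cdh5 with the covariate (-0.23) and over single arrays (-0.13 to 0.43), and Erg with the covariate (-0.039) and over single arrays (-0.14 to 0.29). With 7 arrays Vwf turned with quantile normalization (0.027), F01 in BMAL-/- (0.30) and over single arrays (-0.25 to 0.14), Erg with arrays centred on 1 median (-0.033), the covariate (-0.43), without F02 and F03 (-0.32) and over single arrays (-0.27 to 0.26), Cldn5 with F01 in BMAL-/- (-0.21) and without F02 and F03 (-0.13), Emcn with the covariate (0.038) and without F02 and F03 (0.068), and Eng without F02 and F03 (-0.061). The cause was not tested.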
